A study of Homo sapiens with 31 samples.

Results

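Tumours of 2 clones of PC3, an established human prostate carcinoma cell line, were compared under treatment with cyclophosphamide (CPA): clone D3, which the labels call resistant to the drug, against clone A3, which they call sensitive. The comparison used 8 of the 31 arrays of the series, the 4 of CPA-treated D3 tumours and the 4 of CPA-treated A3 tumours, picked by their titles. It covered 17314 genes. Both clones had been re-isolated after passage in animals and were implanted again as xenografts. When the tumours averaged 30 mm3, CPA was given intraperitoneally at 120 mg/kg. The sample labels do not give the schedule. Untreated tumours of the same clones, 4 arrays of D3 and 3 of A3, served as the background for each difference. The series also held the unpassaged line (wt, labelled sensitive) and a second resistant clone, D4, each with 4 treated and 4 untreated arrays. Every difference between D3 and A3 is a difference between 1 clone and 1 other clone. The labels do not say that each array held the tumour of a different animal, and the p-values therefore rest on the scatter between these arrays, which may be partly technical.

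CPA is a prodrug that cytochrome P450 enzymes, mainly of the liver, turn into an alkylating agent. Aldehyde dehydrogenases can oxidise its intermediate to an inactive product, glutathione can bind the active mustard, and the Fanconi anaemia pathway takes part in removing the DNA crosslinks that remain. Metronomic therapy gives such a drug often and without long breaks, and is known to act on tumour vessels and immune cells as well as on the tumour cells.

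Gene expression was read on arrays as log2 levels, so a difference of 1 is a doubling. The medians of the 31 arrays lay between 6.59 and 6.73. The lowest correlation across genes between arrays of 1 group was 0.991 in treated A3 and 0.990 in treated D3. By a weight estimated from its scatter around its group, replicate 5 of treated D3 (0.49) and replicate 4 of treated A3 (0.55) were the least precise arrays of their groups. Keratins of the simple epithelium were high in all 8 treated tumours: KRT8 lay between 9.45 and 10.09 and KRT19 between 9.95 and 10.57. ACP3, the prostatic acid phosphatase, lay between 5.95 and 6.47. A human array can also bind RNA of the mouse host. The summed level of 13 fibroblast genes was 11.14 to 11.45 in treated A3 and 11.48 to 11.71 in treated D3 (log2 of the sum) and did not overlap. The mean log2 level of the same genes did overlap, at 6.02 to 6.16 in treated A3 and 6.15 to 6.24 in treated D3. COL1A1 was the only fibroblast marker called higher in D3, by 0.55 ± 0.15 (limma, adjusted p = 0.026), and 5 of the 8 arrays ended that call when left out singly, with adjusted p up to 0.12. The summed levels of endothelial, myeloid, lymphoid, erythroid, muscle, adipocyte and skin markers overlapped between the groups, although CD68 was called lower, at -0.30 ± 0.08, and TTN higher, at 0.65 ± 0.17; 5 and 4 single arrays ended these calls when left out, with adjusted p up to 0.14 and 0.096 over all alternatives.

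Of the 17314 genes, 787 (4.55%) differed between treated D3 and treated A3 at an adjusted p under 0.05 (limma, Benjamini-Hochberg over all genes). There were 517 genes lower in D3 (2.99%) and 270 higher (1.56%). This split was 335 to 257 without replicate 4 of A3, 225 to 179 in the fit of the 2 treated groups alone and 202 to 171 without replicate 4 of A3 and replicate 5 of D3 together. Most differences were small: their median size was 0.38 on the log2 scale, and 16 called genes differed by 2-fold or more, 12 of them higher and 4 lower. The 4 D3 arrays lay all above or all below the 4 A3 arrays for 1671 genes (9.65%), among them 717 of the 787 called (91.1%). The number of calls rested partly on single arrays. It was 483 without replicate 1 of A3 and 481 without replicate 5 of D3, of which 467 and 460 were also called with all arrays, and 373 without replicate 4 of A3 and replicate 5 of D3 together. These are tumour homogenates, in which fewer cells of a type and less RNA per cell cannot be told apart.

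The gene that differed most was NTS, which encodes the neuropeptide neurotensin, a growth factor for several carcinomas. Its level was 9.29, 9.71, 9.11 and 9.26 on the treated A3 arrays and 7.06, 7.52, 6.95 and 6.50 on the treated D3 arrays. The groups were far apart, and the untreated tumours of both clones lay at similar heights, 9.25 to 9.73 in A3 and 7.17 to 7.85 in D3. NTS was lower in treated D3 at -2.33 ± 0.22 (SE, n = 4 against 4), a 5.04-fold difference (limma, adjusted p = 3.5e-08). The 250 bases before the start of NTS, the gene with the largest difference, and of PASD1, the gene with the largest difference in the other direction, are shown from RefSeq (GRCh38.p14), with CG, the pair of letters that DNA methylation acts on, in capitals. They lie on the plus strand at chr12:85874045-85874294 and chrX:151563425-151563674.
NTS: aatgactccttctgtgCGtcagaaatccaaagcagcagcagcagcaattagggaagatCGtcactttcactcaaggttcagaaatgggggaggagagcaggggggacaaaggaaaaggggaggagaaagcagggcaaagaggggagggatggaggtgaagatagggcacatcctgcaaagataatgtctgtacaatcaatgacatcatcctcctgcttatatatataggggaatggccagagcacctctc
PASD1: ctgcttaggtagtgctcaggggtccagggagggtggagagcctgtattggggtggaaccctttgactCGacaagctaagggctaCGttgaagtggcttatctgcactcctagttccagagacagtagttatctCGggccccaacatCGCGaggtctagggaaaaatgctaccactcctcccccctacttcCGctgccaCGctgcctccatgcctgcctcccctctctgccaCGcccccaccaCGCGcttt
The window of NTS held 2 CG pairs and that of PASD1 10, against a median of 18 over the 13457 measured genes with such a sequence. The median was 14.5 for the 212 higher genes that had one and 20 for the 430 lower genes. Methylation was not measured in these tumours.

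TCN1, a secreted vitamin B12 binding protein, followed among the lower genes. It read 9.52, 9.75, 9.47 and 9.83 in treated A3 and 8.37, 8.30, 8.63 and 8.35 in treated D3, a difference of -1.23 ± 0.14 (limma, adjusted p = 1.7e-06). MAGEC2, a cancer/testis antigen whose normal expression is restricted to the germ line, read 7.50, 7.54, 7.22 and 7.63 against 6.30, 5.98, 6.32 and 6.51. Neither gene had overlapping arrays, which was a condition for choosing the leading genes. MAGEC2 was lower, at -1.19 ± 0.12. IL13RA2, a decoy receptor for interleukin-13, was lower, at -1.06 ± 0.19, and HCLS1, a cortactin relative best known from blood cells, at -0.94 ± 0.11. PDPN, the membrane glycoprotein podoplanin, was 7.26, 7.07, 7.12 and 6.96 in treated A3 and 6.42, 6.15, 6.16 and 6.32 in treated D3 (-0.84 ± 0.08, limma adjusted p = 1.1e-07). BMPR1B, a receptor for bone morphogenetic proteins, was lower, at -0.80 ± 0.11, the pseudogene ARB2BP at -0.80 ± 0.17 and MME, the cell surface peptidase neprilysin, at -0.76 ± 0.17. SCNN1G, a subunit of the epithelial sodium channel, was lower, at -0.92 ± 0.27 at an adjusted p of 0.043 (limma), but 6 of the 8 single arrays ended the call when left out, with adjusted p up to 0.23 without replicate 1 of A3. ARB2BP was not called without replicate 4 of A3 and replicate 5 of D3 together (limma, adjusted p = 0.068). The other genes named here passed under every alternative in which they were tested. MME was among the dimmest 30% of genes and was not tested in the alternative that dropped these.

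PASD1, a cancer/testis antigen with a PAS domain, was the gene most raised in D3 over A3. Its level was 5.26, 5.57, 5.48 and 5.71 in treated A3 and 7.49, 7.48, 7.26 and 7.04 in treated D3. The difference was 1.82 ± 0.11, or 3.52-fold (limma, adjusted p = 1.7e-12). ZNF711, an X-linked zinc finger protein that binds DNA, read 4.48, 4.21, 4.86 and 4.89 against 6.39, 6.27, 6.55 and 6.17 (1.74 ± 0.18). DHRS2, a short-chain reductase, read 6.07, 6.03, 5.84 and 5.77 against 7.47, 7.58, 7.45 and 7.60 (1.60 ± 0.11). No array of 1 clone overlapped the other clone for either gene, as the choice of leading genes required. STK26, a kinase of the germinal centre family, was higher by 1.39 ± 0.13, and ANKRD30A, an antigen best known from breast tissue, by 1.29 ± 0.14. ESM1, the secreted proteoglycan endocan, was 4.70 to 5.05 in treated A3 and 6.05 to 6.23 in treated D3 (1.25 ± 0.14). CALB1, a calcium-binding protein, was higher by 1.19 ± 0.24, CDC20B, a relative of the mitotic activator CDC20, by 1.15 ± 0.16, and CST1, a secreted inhibitor of cysteine proteases, by 1.04 ± 0.23. The A3 arrays spread widely for CALB1, from 4.55 to 5.83, and for CST1, from 4.24 to 5.32. These 9 genes passed under every alternative in which they were tested. ZNF711, ANKRD30A, ESM1, CALB1, CDC20B and CST1 were among the dimmest 30% of genes and were not tested in the alternative that dropped these.

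**Figure D1:**
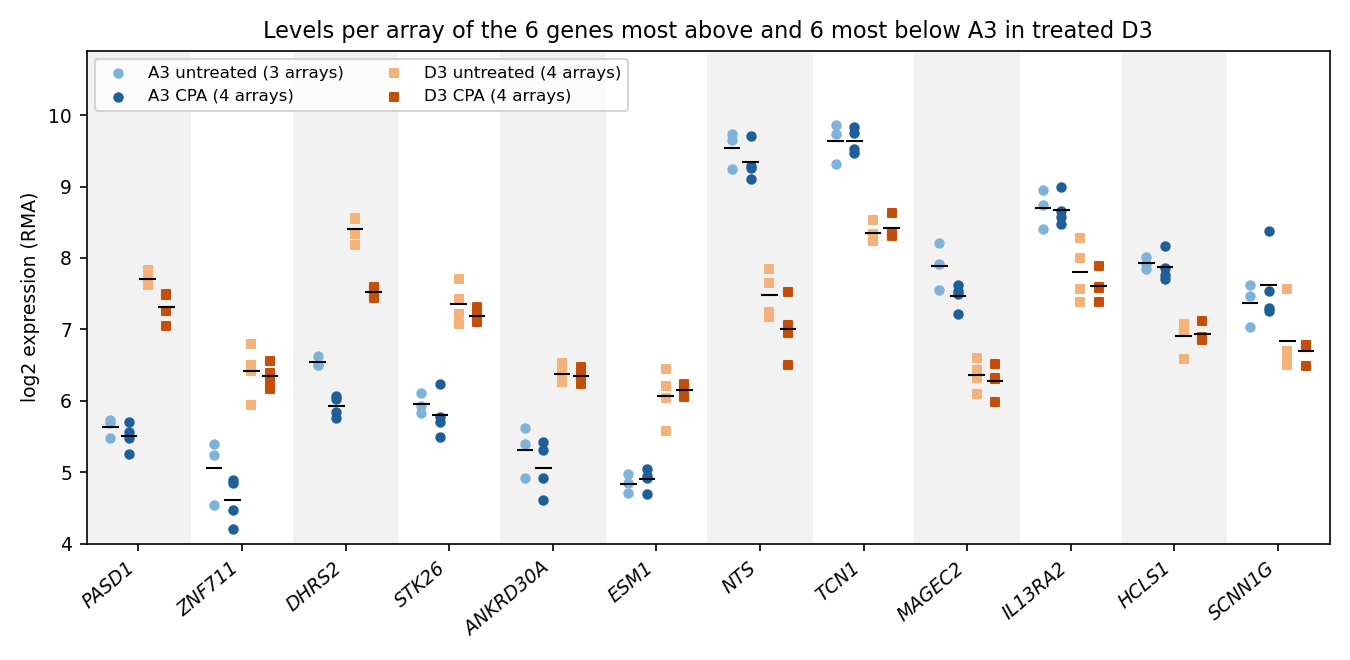
Log2 expression (vertical axis) on each array of untreated and treated A3 (circles) and D3 (squares) for the 6 genes most raised and the 6 most lowered in treated D3, with a bar at each group mean. NTS sits above 9 in all A3 arrays and below 8 in all D3 arrays, and SCNN1G shows 1 treated A3 array at 8.38, apart from the other 3.

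The remaining leading genes were zinc finger genes of 1 gene family. KRAB zinc finger proteins are repressors, many of which bind transposable elements, and a large cluster of them that expanded in primates lies in band 19p12. Of 33 measured genes of this cluster, 10 were higher in treated D3 (30.3%, against 1.56% of all genes) and none was lower. The difference was above 0 for 32 of 33, with a median of 0.30 against 0.02 over all genes. Like the other lists, this one was chosen with earlier results of these data known and is not independent evidence of its direction. ZNF492 read 5.62, 5.30, 5.14 and 5.42 in treated A3 and 6.66, 6.29, 6.44 and 6.37 in treated D3 (1.07 ± 0.14, limma adjusted p = 1.4e-05). ZNF626 read 5.49, 5.78, 5.25 and 5.78 against 6.47, 6.61, 6.70 and 6.62 (1.03 ± 0.12, limma adjusted p = 3.3e-06). The arrays of the clones did not overlap for either gene, as the choice of leading genes required. ZNF91, a repressor of SVA retroelements, read 6.43, 6.97, 7.47 and 7.36 against 8.07, 8.32, 7.92 and 8.15 (1.05 ± 0.26, limma adjusted p = 0.014). Its A3 arrays ranged over more than 1 unit, and the call was lost without replicate 1 of A3 (adjusted p = 0.088) and without replicate 3 of D3 (adjusted p = 0.052). ZNF486 was higher by 0.85 ± 0.13 and ZNF506 by 0.73 ± 0.11, both under every alternative in which they were tested. ZNF492 and ZNF506 were among the dimmest 30% of genes and were not tested in the alternative that dropped these. The count for the list was 6 without replicate 1 of A3, 6 without replicate 3 of D3 and 6 of 18 without the dimmest genes. In untreated tumours 8 of the 33 were called higher in D3, against 1.3% of all genes, and none lower, with a median of 0.39. In treated D4 against the same treated A3 arrays, 23 of the 33 were called, counted in either direction. The share of all genes called in that contrast is not given here. The genes are close copies of one another, and how far the probes of 1 also read its neighbours was not tested.

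The promoters of these genes are close copies as well, which is why those of the 3 leading members are shown. The windows are the 250 bases before the start (RefSeq, GRCh38.p14) of ZNF492 at chr19:22634074-22634323 on the plus strand, ZNF91 at chr19:23395472-23395721 on the minus strand and ZNF626 at chr19:20661572-20661821 on the minus strand. Capitals mark TCCAATCA, a word with the letters CCAAT in it that was picked after these sequences had been looked at.
ZNF492: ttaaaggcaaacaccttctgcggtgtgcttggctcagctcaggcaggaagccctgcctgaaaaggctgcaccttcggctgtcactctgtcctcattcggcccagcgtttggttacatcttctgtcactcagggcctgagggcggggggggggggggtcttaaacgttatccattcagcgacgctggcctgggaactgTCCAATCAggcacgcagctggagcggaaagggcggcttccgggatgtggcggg
ZNF91: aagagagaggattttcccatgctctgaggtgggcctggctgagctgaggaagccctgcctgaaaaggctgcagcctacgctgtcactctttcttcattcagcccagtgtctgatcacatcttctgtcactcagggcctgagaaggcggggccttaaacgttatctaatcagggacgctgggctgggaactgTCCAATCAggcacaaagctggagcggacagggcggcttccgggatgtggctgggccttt
ZNF626: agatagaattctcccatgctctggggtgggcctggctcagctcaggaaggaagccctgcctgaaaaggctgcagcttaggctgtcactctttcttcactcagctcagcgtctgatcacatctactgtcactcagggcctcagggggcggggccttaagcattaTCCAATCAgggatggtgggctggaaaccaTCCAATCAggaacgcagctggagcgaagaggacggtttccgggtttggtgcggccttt
ZNF492 and ZNF91 were identical at 89.2% of aligned bases, ZNF91 and ZNF626 at 88.2%, and ZNF492 and ZNF626 at 83.3%. On either strand (TCCAATCA or TGATTGGA) the word was in 413 of 27305 promoters (1.51%) and in all 27 members of the list that had a promoter in the table, called or not. Outside the list it was in the promoters of 198 measured genes, of which 7 were called higher (3.54%, against 1.56% of all genes) and 8 lower (4.04%, against 2.99%) in treated D3. The word was thus in the promoters of the 9 called members with an entry and equally in those of the members that were not called.

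**Figure D2:**
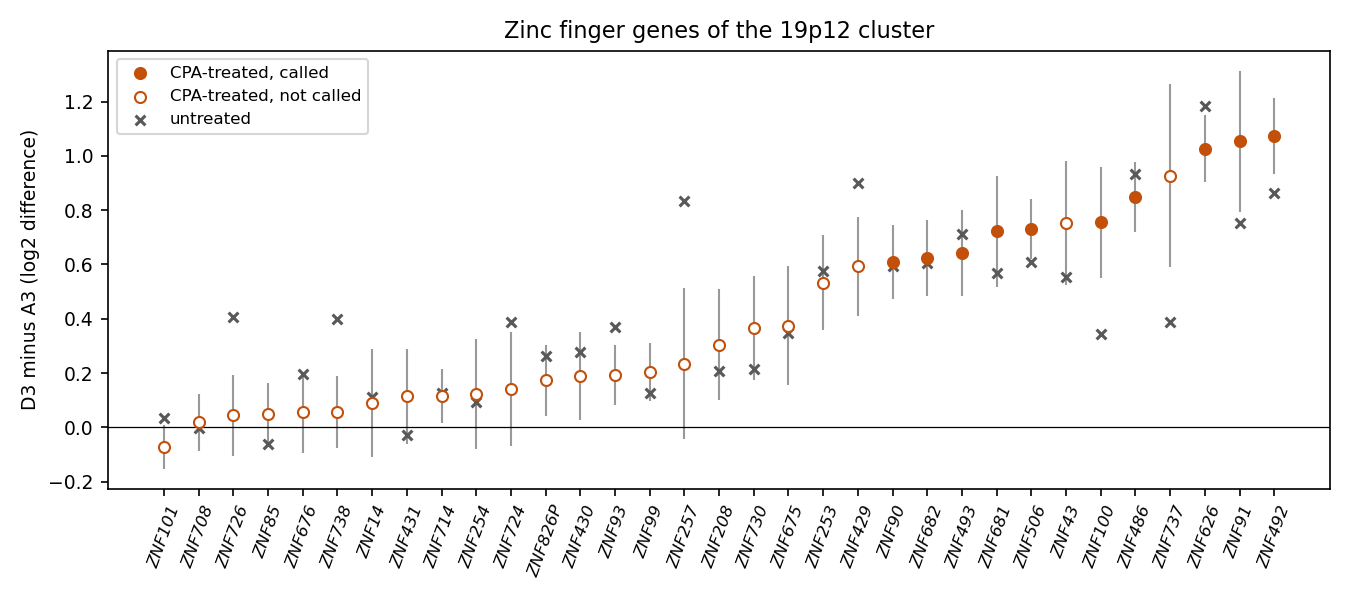
Log2 difference D3 minus A3 (vertical axis) for each of the 33 measured zinc finger genes of the 19p12 cluster, ordered by the difference in CPA-treated tumours (circles, filled where called, with the standard error) beside the difference in untreated tumours (crosses). All but 1 gene lie above 0 with CPA, and 10 are called.

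Genes of DNA replication were lower in D3. Of 46 measured genes of replication and entry into S phase, 12 were called lower in treated D3 (26.1%, against 2.99% of all genes), none was higher, and 43 lay below 0, with a median of -0.26. CDC45, part of the replicative helicase, read 9.23, 9.32, 9.01 and 9.04 in treated A3 and 8.71, 8.67, 8.55 and 8.53 in treated D3 (-0.53 ± 0.09, limma adjusted p = 0.00043). MCM2, a subunit of the same helicase, read 9.84, 9.69, 9.62 and 9.55 against 9.34, 9.13, 9.33 and 9.20 (-0.42 ± 0.08). RRM1, the large subunit of ribonucleotide reductase, read 10.93 to 11.25 on the 4 treated A3 arrays and 10.51 to 10.60 on the 4 treated D3 arrays (-0.51 ± 0.10). The arrays of the clones did not overlap for any of these 3 genes. POLA2, a subunit of the polymerase that makes primers, was lower, at -0.40 ± 0.08. CDC45, MCM2, RRM1 and POLA2 were called under every alternative run. The other called members were MCM5, GINS3, CDC6, RRM2, TYMS, CCNE2, FEN1 and CHAF1B, of which GINS3 lost its call without any of 7 single arrays and CDC6, RRM2 and CCNE2 each without any of 5. In untreated tumours 3 of the 46 were called lower (MCM2, MCM5 and CDC45), against 0.97% of all genes, with a median of -0.09. CDC6 stood at 0.06 there against -0.39 under treatment, but no gene was called for the difference between the CPA effects of the clones. The count was 8 without replicate 4 of A3, 8 without replicate 5 of D3 and 7 without both. Of 44 genes of mitosis 2 were lower in treated D3 (4.55%, against 2.99% of all genes), BUB3 and PRC1, with a list median of -0.09. Each of the 2 lost its call when any of 5 or more single arrays was left out (limma, adjusted p up to 0.22 over all alternatives). The proliferation marker MKI67 read 9.34 to 9.67 in treated A3 and 9.10 to 9.18 in treated D3, a difference of -0.34 ± 0.11 that missed the threshold (limma, adjusted p = 0.074). None of 41 replication-dependent histone genes was called in either direction.

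Of 27 measured receptors, channels and peptides of nerve signalling, 7 were lower (25.9%, against 2.99%) and none was higher. The difference lay above 0 for 11 of the 27, and the list median was -0.06. This list had been put together with the leading genes of these clones known and is not independent evidence of its direction. Beside NTS, it held GABRE, a subunit of the GABA-A receptor, which averaged 6.98 ± 0.11 in treated A3 and 6.08 ± 0.08 in treated D3 (SD, n = 4 each) and lay at 6.83 or above on each A3 array and 6.17 or below on each D3 array (-0.89 ± 0.08, limma adjusted p = 1.9e-08). CHRM3, the muscarinic receptor M3, read 8.92, 9.05, 9.20 and 9.35 against 8.34, 8.30, 8.42 and 8.37 (-0.77 ± 0.08). Both genes separated the clones on every array, which their choice as leading genes required. PDE3A, a phosphodiesterase of cyclic nucleotides, was lower, at -0.66 ± 0.09, the potassium channel KCNJ6 at -0.70 ± 0.11, IL1RAPL1 at -0.62 ± 0.14 and GABRQ, a subunit of the same receptor family as GABRE, at -0.42 ± 0.10, a call that 3 single arrays ended when left out.

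Genes of epithelial adhesion were higher in D3, with 6 of 31 measured called higher (19.4%, against 1.56%) and none lower. The list median was 0.12, and 0.06 without replicate 4 of A3. MPZL2, an adhesion molecule of epithelia, read 5.34, 4.98, 5.52 and 4.78 in treated A3 and 6.15, 6.18, 5.91 and 6.29 in treated D3 (0.98 ± 0.15, limma adjusted p = 8.6e-05). CDH3, P-cadherin, read 6.66, 6.36, 6.51 and 6.38 against 7.10, 7.12, 7.13 and 7.01 (0.61 ± 0.10). DSP, the desmosomal protein desmoplakin, was higher by 0.51 ± 0.09. These 3 were called under every alternative in which they were tested. MPZL2 was among the dimmest 30% of genes and was not tested in the alternative that dropped these. EPCAM (0.32 ± 0.08), the integrin subunit ITGA6 (0.36 ± 0.09) and the splicing regulator ESRP2 (0.37 ± 0.10) were called as well. EPCAM was not called without replicate 1 of A3 (adjusted p = 0.075) or replicate 3 of D3 (0.051), nor ITGA6 without replicate 1 of A3 (0.059). The call of ESRP2 ended without any of 5 single arrays. The list held 4 calls without replicate 1 of A3, and in the fit of the 2 treated groups alone it held 3 (adjusted p 0.09 for EPCAM). Of 25 genes linked to the mesenchymal state, 2 were higher (8%, against 1.56% of all genes) and 1 was lower (4%, against 2.99%). The median was -0.02, from -0.05 to 0.05 over the alternatives. FN1, the matrix protein fibronectin, read 10.74, 10.36, 10.36 and 10.53 against 11.01, 10.93, 11.20 and 10.94 (0.52 ± 0.10). TGFB2, a transforming growth factor, was higher by 0.64 ± 0.13, and the member that was lower was PDPN. The summed level of the fibroblast markers, of which 1 of 13 was called, was higher in the same tumours as FN1, while their mean log2 levels overlapped. The part of host fibroblasts in the FN1 result was not tested.

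Among 27 amino acid transporters and tRNA synthetases, 4 were higher in treated D3 (14.8%, against 1.56% of all genes) and none was lower. SLC7A5, the light chain of the leucine transporter LAT1, read 9.97, 9.75, 9.76 and 9.65 in treated A3 and 10.65, 10.26, 10.52 and 10.29 in treated D3 (0.65 ± 0.10, limma adjusted p = 0.0002). SLC7A6, a transporter of basic and neutral amino acids, read 7.79, 7.79, 7.55 and 7.91 against 8.53, 8.34, 8.43 and 8.24 (0.62 ± 0.08). Both were called under every alternative run. SLC7A11, the cystine importer that feeds glutathione synthesis, read 8.95, 9.61, 9.71 and 9.44 against 10.00, 9.99, 9.86 and 10.09. Its difference of 0.56 ± 0.16 had an adjusted p of 0.042 (limma) and was not called without any of 6 single arrays (0.40 and an adjusted p of 0.23 without replicate 1 of A3). NARS1, the asparaginyl-tRNA synthetase, was higher by 0.31 ± 0.08, a call lost without replicate 1 of A3 (adjusted p = 0.10), replicate 2 of D3 (0.055) or replicate 5 of D3 (0.090).

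The cancer/testis antigens, a list also known to hold leading genes of these clones, split in direction: of 23 measured, 2 were higher (PASD1 and SSX1, the latter by 0.52 ± 0.11) and 4 were lower (MAGEC2, PRAME, SSX7 and CSAG1). These are 8.7% higher and 17.4% lower, against 1.56% and 2.99% of all genes. The calls of SSX7 and CSAG1 ended without any of 6 and of 4 single arrays, and the list held 2 lower calls without replicate 1 of A3, replicate 4 of A3 or replicate 5 of D3. PRAME read 7.37, 7.24, 7.06 and 7.54 in treated A3 and 6.74, 6.78, 6.72 and 6.98 in treated D3 (-0.49 ± 0.11). Genes of coagulation and plasminogen activation split too, with 1 higher (5.56%) and 3 lower (16.7%) of 18. The 2 plasminogen activators moved apart. PLAT, the tissue type, read 10.23, 10.05, 9.93 and 10.21 against 10.79, 10.39, 10.67 and 10.71 (0.53 ± 0.08, limma adjusted p = 0.00018), and PLAU, the urokinase type, read 11.32, 11.21, 11.33 and 11.31 against 11.01, 10.79, 11.04 and 10.64 (-0.42 ± 0.09, adjusted p = 0.0056). PROS1, the anticoagulant protein S, was lower, at -0.53 ± 0.10 and SERPINB7, a serine protease inhibitor, at -0.52 ± 0.12; without replicate 4 of A3 and replicate 5 of D3 together PLAU (adjusted p = 0.083) and SERPINB7 (0.11) were not called, nor was SERPINB7 without replicate 3 of D3 (0.066). Of 26 chemokines and cytokines, 3 were lower (11.5%, against 2.99%) and none was higher. CXCL1, a ligand that attracts neutrophils, read 8.12, 8.17, 8.23 and 8.09 against 7.68, 7.61, 7.76 and 7.68 (-0.47 ± 0.09), and CCL28 and CXCL6 were lower, at -0.51 ± 0.12 and -0.39 ± 0.10. CXCL1 passed under every alternative run, CCL28 was lost without replicate 1 of A3 (adjusted p = 0.060) and CXCL6 without replicate 2 of A3 (0.10) or replicate 5 of D3 (0.091).

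Genes that handle CPA or its damage were read against the 1.56% of all genes called higher and 2.99% called lower. None of the 6 measured genes of CPA activation was called: CYP2B6, an enzyme that activates the drug, stood at -0.28 ± 0.14 and CYP3A5 at -0.12 ± 0.11, at levels of 5.10 to 5.90 and 3.97 to 4.37 in the 8 treated tumours. Of 19 aldehyde dehydrogenases 3 were lower in D3 (15.8%) and none higher. ALDH18A1, which makes a precursor of proline, read 10.53, 10.37, 10.36 and 10.62 against 10.06, 9.93, 10.12 and 10.06 (-0.43 ± 0.07, limma adjusted p = 0.00036). ALDH9A1 was lower, at -0.30 ± 0.06 (adjusted p = 0.089 in the fit of the 2 treated groups alone) and ALDH2, the mitochondrial enzyme, at -0.35 ± 0.10, and ALDH2 lost its call without any of 6 single arrays (adjusted p up to 0.16). ALDH1A1 and ALDH3A1, the members best known for oxidising the CPA intermediate and named for that reason outside the rule, stood at 0.10 ± 0.13 and 0.06 ± 0.12. Among 28 genes of glutathione synthesis and conjugation, 2 were lower (7.14%) and 1 higher (3.57%): GSTT1 was lower, at -0.45 ± 0.10 (adjusted p = 0.055 without replicate 4 of A3 and replicate 5 of D3), GSTO1 was lower, at -0.37 ± 0.11 and SLC7A11 was higher, as given above. GSTO1 lost its call without any of 5 single arrays (adjusted p up to 0.21). Of 33 genes of crosslink and alkylation repair, 2 were lower (6.06%) and none higher. FANCF and FANCG of the Fanconi core complex were lower, at -0.37 ± 0.09 and -0.29 ± 0.08. FANCF was lost without replicate 5 of D3 (adjusted p = 0.069) and FANCG without any of 7 (up to 0.20). Of 13 efflux transporters 1 was lower (7.69%) and none higher, although 2 were called higher with a further quantile normalization and 1 with array weights. The mitochondrial porphyrin transporter ABCB6 was lower, at -0.36 ± 0.09, and it was lost without replicate 1 of A3 (adjusted p = 0.093), replicate 4 of A3 (0.051) or replicate 5 of D3 (0.082).

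Of 31 apoptosis regulators, 1 was higher (3.23%, against 1.56% of all genes) and 2 were lower (6.45%, against 2.99%). CASP4, an inflammatory caspase, read 7.66 to 7.91 in treated A3 and 6.89 to 7.17 in treated D3 (-0.73 ± 0.10, limma adjusted p = 3.6e-05). APAF1, the scaffold of the apoptosome, averaged 8.55 ± 0.21 in treated A3 and 7.97 ± 0.03 in treated D3 (SD; -0.58 ± 0.09, limma adjusted p = 0.0002). PMAIP1, which encodes the BH3-only protein NOXA, read 8.03, 8.41, 8.07 and 7.89 against 8.57, 8.74, 8.58 and 8.63 (0.53 ± 0.10). All 3 separated the clones on every array and were called under every alternative run. PC3 lacks functional p53. Of 24 target genes of p53, 1 was higher (4.17%, PMAIP1) and 1 lower (4.17%, TP53I3), against 1.56% and 2.99% of all genes. TP53I3 stood at -0.26 ± 0.07 and was lost without any of 5 single arrays (limma, adjusted p up to 0.16 over all alternatives). Of 37 genes of hypoxia and glycolysis none was called, although 34 lay below 0, with a median of -0.16, and -0.08 without replicate 1 of A3. STC1, PFKFB4 and ENO2 stood at -0.60 ± 0.18, -0.64 ± 0.21 and -0.61 ± 0.20 (limma, adjusted p 0.053, 0.088 and 0.085), and replicate 1 of treated A3 was the highest array for each, at 7.86, 9.03 and 9.57. Of 40 interferon-induced genes, 1 was lower (2.5%, against 2.99% of all genes) and none higher. It was USP18, at -0.50 ± 0.11 (limma, adjusted p = 0.10 without replicate 4 of A3 and replicate 5 of D3). FDPS and NSDHL of sterol synthesis were lower, at -0.41 ± 0.08 and -0.32 ± 0.07, 2 calls among 19 genes (10.5%, against 2.99%). NSDHL was not called without replicate 4 of A3 and replicate 5 of D3 (limma, adjusted p = 0.095). Of the 19 genes 17 lay below 0, with a median of -0.17. In untreated tumours 6 of the 19 were called lower, against 0.97% of all genes, with a median of -0.36.

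**Figure D3:**
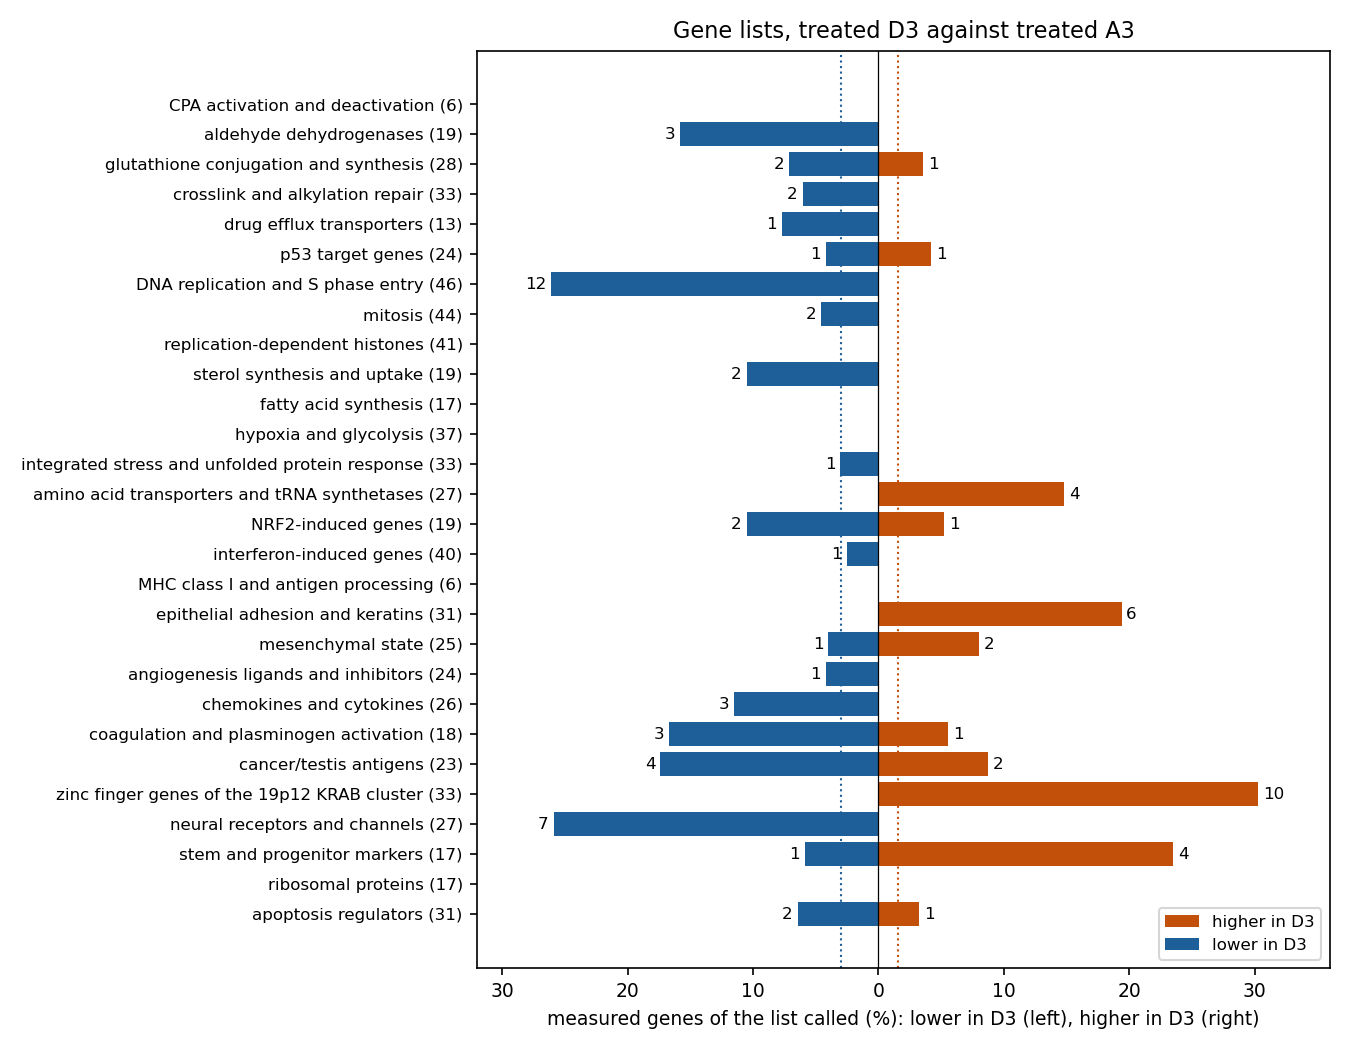
Share of the measured genes of each list (number in brackets) called lower (left) or higher (right) in treated D3 against treated A3, in percent, with the number of genes at each bar and dotted lines at the share over all genes. The zinc finger, replication and neural lists stand farthest from the dotted lines, with 10, 12 and 7 calls.

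The same contrast in untreated tumours, which shares no array with the treated one, asked how much of the difference was there without the drug. It called 393 genes (2.27%), 225 higher (1.3%) and 168 lower (0.97%) in D3, with 3 A3 arrays in place of 4. The split turned to 119 higher and 137 lower without replicate 2 of untreated A3, and to 537 and 670 with array weights. Both contrasts called 255 genes in the same direction, 132 higher and 123 lower, which is 32.4% of the treated and 64.9% of the untreated calls. None was called in opposite directions. The shared calls were 85 higher and 108 lower without replicate 2 of untreated A3, and 236 and 282 with array weights. Of the 787 genes called under treatment, 772 had the same sign without it. The 138 genes called higher only under treatment had a median of 0.40 with CPA and 0.26 without, and the 394 called lower only under treatment had medians of -0.35 and -0.20. Both sets had to pass the threshold under treatment and miss it without, so larger treated medians follow from how they were chosen. PASD1 differed by 2.07 in untreated tumours against 1.82 in treated ones, DHRS2 by 1.86 against 1.60, NTS at -2.06 against -2.33 and MAGEC2 at -1.53 against -1.19, with untreated adjusted p of 3.9e-13, 3.5e-12, 1.9e-06 and 7.8e-09 (limma). CST1 (0.71), ZNF91 (0.75), SCNN1G (-0.54) and ARB2BP (-0.47) were called only under treatment. Across the 17314 genes, which are not independent, the differences with and without CPA correlated at 0.59. The untreated counts were less stable: 6 of the 7 untreated arrays moved them by over 1.5 times when left out singly, down to 168 without replicate 4 of A3, 227 without replicate 2 of D3, 236 without replicate 1 of A3, 237 without replicate 1 of D3, 250 without replicate 5 of D3 and 256 without replicate 2 of A3. The shared calls fell to 131, 166 and 168 without replicate 4 of A3, replicate 2 of D3 and replicate 1 of A3.

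**Figure D4:**
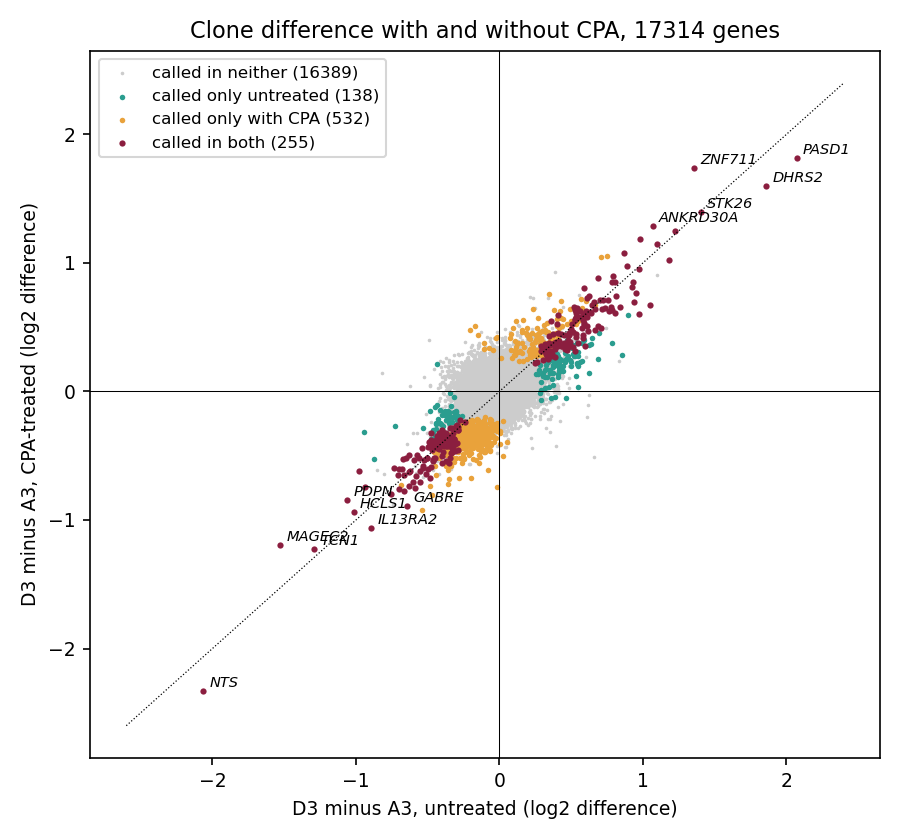
Log2 difference D3 minus A3 in CPA-treated tumours (vertical axis) against that in untreated tumours (horizontal axis) for 17314 genes, coloured by where they were called, with a dotted line of equal differences. The 255 genes called in both lie along the line, and none was called in both with opposite signs.

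Whether CPA changed D3 and A3 differently was tested as the difference between the CPA effects of the clones. No gene was called (0%) by limma after adjustment over all genes, and 507 genes (2.93%) had an unadjusted p under 0.05. The lowest adjusted p was 0.9999. This contrast has a median standard error of 0.15 against 0.10 for the difference between the treated clones, so it is the less precise of the 2. The smallest p belonged to MAGEB18, a cancer/testis antigen, with 0.59 ± 0.14: it read 4.22 to 4.52 in treated A3 and 4.62 or above in treated D3, and 4.53 to 4.67 and 4.25 to 4.72 in the untreated tumours. The next genes in that direction were DEFB136 (0.89), CLEC7A (0.60), ZNF69 (0.68) and SLC30A2 (0.65), and in the other KRT73 (-0.48), RIBC2 (-0.53), ARHGEF6 (-0.47), PROX2 (-0.55) and ADGRG2 (-0.35). RIBC2, a protein of ciliary microtubules, read 5.76, 5.47 and 5.56 in untreated A3 and 6.48, 6.08, 6.09 and 6.43 in treated A3, an increase of 0.68 (limma, adjusted p = 0.00056). In D3 it read 5.52 to 5.77 without and 5.63 to 5.86 with CPA (0.15, adjusted p = 0.50). The difference between these effects had an adjusted p of 0.9999.

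The treated tumours of wt and D4 place the leading genes further; the values below share the D3 or the A3 arrays with the comparison above and are given only side by side. The mean level of NTS was 9.34 in A3, 7.01 in D3, 7.44 in D4 and 6.72 in wt, so that A3 stood apart from the other 3. The same order of A3 against the rest held for GABRE (6.98 in A3, 6.08 in D3, 5.90 in D4 and 5.78 in wt) and IL13RA2 (8.67, 7.61, 7.64 and 7.70). For TCN1 the means were 9.64 in A3, 8.41 in D3, 8.33 in D4 and 9.50 in wt, and for CHRM3 9.13, 8.36, 8.16 and 9.02, so that both sensitive lines lay above both resistant clones. PASD1 (5.50 in A3, 7.32 in D3, 7.37 in D4 and 5.61 in wt) and DHRS2 (5.93, 7.52, 7.78 and 6.35) were low in both sensitive lines. ESM1 (4.90, 6.15, 5.00 and 5.49), ZNF711 (4.61, 6.35, 5.04 and 5.82) and CALB1 (5.30, 6.49, 5.49 and 5.70) were highest in D3, with D4 close to A3: the difference D4 minus A3 was 0.09, 0.43 and 0.18, with limma adjusted p of 0.66, 0.12 and 0.63. ANKRD30A (5.06, 6.35, 5.32 and 6.38) stood at its highest means in wt and D3. For MAGEC2 the means were 7.47, 6.28, 7.19 and 6.14, with D4 near A3 and wt near D3. ZNF91 stood at 7.06 in A3 against 8.11 in D3, 8.47 in D4 and 8.22 in wt, and ZNF626 at 5.57 against 6.60, 6.79 and 6.40, so that A3 was lowest for both.

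The called genes were spread unevenly over the chromosomes, a grouping chosen after the values had been seen. Over all genes there were 517 lower calls with treatment and 168 without, so counts with and without it are given with their shares. On chromosome 22, 55 of 401 genes were lower in treated D3 (13.7%, against 2.99% of all genes) and 1 was higher. Without treatment 29 were lower (7.23%, against 0.97% of all genes) and none higher. On chromosome 10, 66 of 638 were lower (10.3%) and 4 higher (0.627%). Without treatment 12 were lower (1.88%) and 5 higher (0.784%), against 0.97% and 1.3% of all genes. The median over all genes of chromosome 10 was -0.04 with treatment and -0.06 without. Chromosomes 12 and 11 held lower shares of 5.91% and 5.19% under treatment. The X chromosome held 54 lower genes of 638 (8.46%), with 15 higher (2.35%), against 19 (2.98%) and 12 (1.88%) without treatment. Its lower genes under treatment were 35 without replicate 5 of D3. Chromosome 16 went the other way, with 34 of 723 higher (4.7%, against 1.56% of all genes) and 4 lower, and chromosome 19 had 32 of 1252 higher (2.56%) and 4 lower. The higher shares of the smaller chromosomes 18 and 21 were above that of chromosome 19, at 3.63% and 3.6%. Without replicate 5 of D3 the lower genes were 34 on chromosome 22 and 34 on chromosome 10, without replicate 1 of A3 they were 32 and 42, and without replicate 3 of D3 those of chromosome 22 were 36. Chromosome 16 held 19 higher genes without replicate 3 of A3 and 21 without replicate 4 of D3, and chromosome 19 held 20 without replicate 3 of D3. With a further quantile normalization chromosome 16 held 55 higher genes, and with array weights 61. DNA copy number was not measured in these files.

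Called genes also stood next to each other. There were 13 runs of at least 3 neighbouring measured genes called in 1 direction, 9 of them lower and 4 higher, with 42 genes in all. All 42 had the same sign in untreated tumours, where 19 were called. Of all 787 treated calls, 772 had the same sign there and 255 (32.4%) were called in the same direction. How many runs the number of calls alone would give was not tested. A run on chromosome 10 held TIAL1 (-0.31), BAG3 (-0.35), INPP5F (-0.39) and MCMBP (-0.51), and 1 on chromosome 22 held PI4KA (-0.36), SERPIND1 (-0.40), SNAP29 (-0.45) and CRKL (-0.27). On the X chromosome GABRQ (-0.42), CSAG1 (-0.46), CETN2 (-0.44) and NSDHL (-0.32) followed each other among the measured genes, so that 3 members of separate lists given above were neighbours. On chromosome 19 the run ZNF682, ZNF90 and ZNF486 (0.62, 0.61 and 0.85) belonged to the zinc finger cluster. These differences are from the fit given above, and all had adjusted p under 0.05 (limma).

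**Figure D5:**
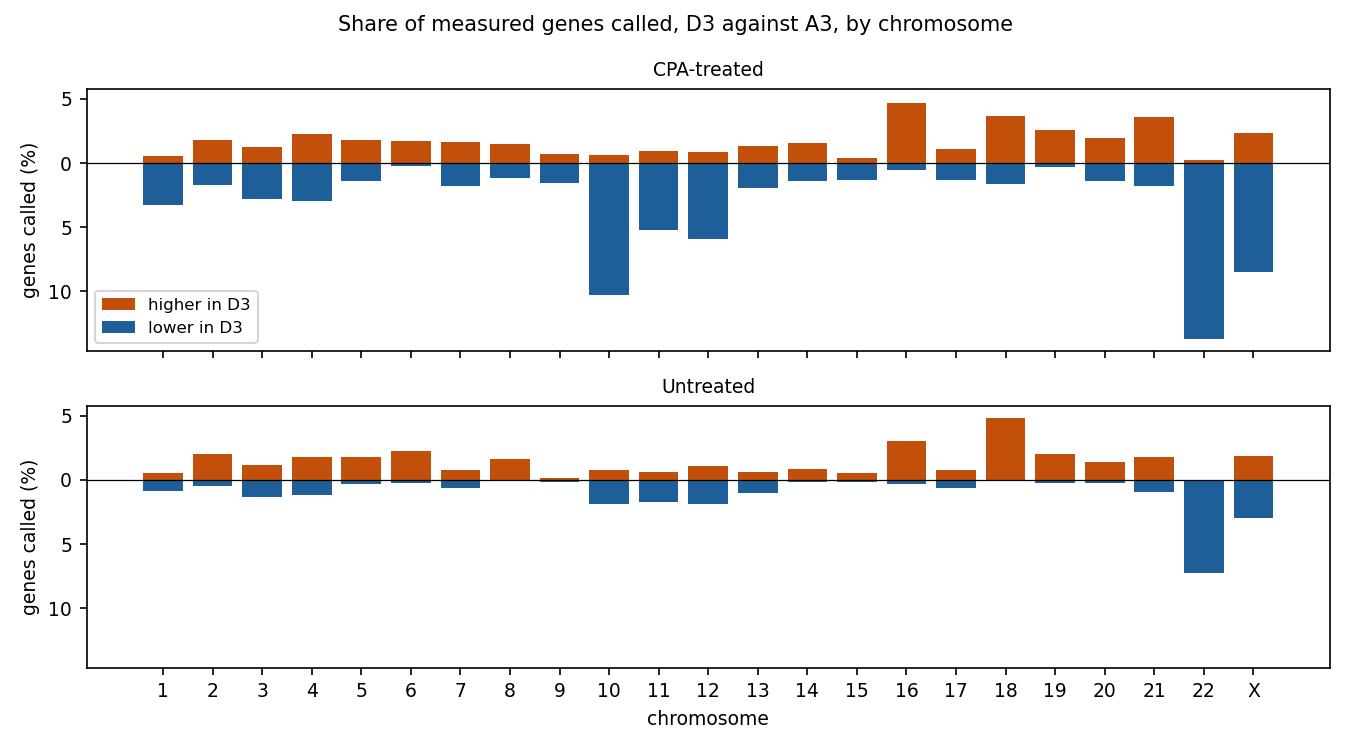
Percentage of measured genes on each chromosome called higher (upward) or lower (downward) in D3 against A3, in CPA-treated (top) and untreated (bottom) tumours. Chromosomes 22 and 10 hold the largest lower shares with CPA, 13.7% and 10.3%, and chromosome 16 the largest higher share with CPA, 4.7%. Without CPA chromosome 18 holds the largest higher share, 4.84%.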

How the data were processed

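Affymetrix Human Gene 1.0 ST arrays were hybridised with total RNA of PC3 xenografts. The deposited log2 values came from RMA, per the submitters' processing notes; its software and version are not given in the sources used here. RMA brings the probe intensities of the arrays to 1 distribution before they are summarised, so a shift common to all genes cannot be seen. The summarised values need not share 1 distribution, and their array medians lay between 6.59 and 6.73. Of 32 planned arrays 31 were held here. Of 23989 probe sets, 17624 carried 1 gene symbol in the platform annotation, 411 carried several and 5954 none. For 276 genes several sets competed, and the set that was brightest on average over the 31 arrays was used, which left 17314 genes. Chromosomes, neighbours and promoters came from RefSeq tables (GRCh38.p14), in which 17290 genes were found.

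D3 minus A3 was fitted with limma 3.58.1 (R 4.3.3) in 1 model of the 8 groups over 31 arrays, with 23 residual degrees of freedom; the median standard error was 0.10. P-values were adjusted over all genes (Benjamini-Hochberg), and "called" means an adjusted p under 0.05. Errors given as ± are standard errors of that fit unless marked SD. On simulated data the fit found 99% of 100 genes changed by 1 and 80% of 100 changed by 0.5 (log2), and called 9 of the unchanged genes. The simulated noise was normal, independent between genes and arrays, and of equal spread on all arrays for a given gene. Arrays of unequal precision were not simulated, so these shares are not the sensitivity in the real data.

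The members and lists were chosen with earlier results of these data known. The naming rule took the 12 highest and 12 lowest called genes with non-overlapping arrays and the 4 smallest p-values of each list. It also took the 5 genes in each direction with the smallest p for the difference of CPA effects. The text does not describe every list or gene so chosen: the called genes TALDO1, TXNRD1, CRELD2 and PDGFC, among others, are left out. Other called members and the genes of runs were named after their values were seen. Alternatives were to fit the compared groups alone, to block on the replicate number, to let the variance follow expression, to weight the arrays, to quantile-normalize once more, to centre each array on its median, to drop the dimmest 30% of genes, to test all probe sets or their mean per gene, and to leave out each array in turn. Leaving out the least precise array of both treated groups was added after seeing the data.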

Additional observations from a re-analysis of the deposited data

Results flagged for a closer look

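Each of the 169 genes that the naming rule gave was checked for 1 array that lay far from the other 3 of its treated group (Dixon's ratio). Of 338 groups of 4 arrays 16 held such an array (4.73%), and chance gives about 1 in 20. Replicate 5 of D3 was that array for 5 genes: SCNN1G at 6.48, POLA2 at 9.28, the histone gene H3C2 at 8.98, RPL19 at 10.30 and CIDEC at 5.96. In D3, ALDH9A1 stood apart in replicate 2 at 9.72, LPIN1 in replicate 3 at 9.11 and THBS2 in replicate 4 at 6.12. In A3, the histone gene H4C1 stood apart in replicate 1 at 7.10, FADS1 in replicate 1 at 10.02 and NLRC5 in replicate 1 at 6.58. PLAU stood apart in replicate 2 of A3 at 11.21 and RPL13 in replicate 2 at 6.83. SBSN did so in replicate 3 of A3 at 6.09, CDC20B in replicate 4 at 4.25 and ITGA6 in replicate 4 at 10.08. The arrays of CDC20B, ALDH9A1, POLA2, SCNN1G, PLAU and ITGA6 did not overlap between the clones with these values included. For CDC20B and SCNN1G this was a condition of their choice.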

How the results depend on the processing

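The treated contrast called 404 genes in a fit of only the groups compared and 373 without replicate 4 of A3 and replicate 5 of D3, and 481 to 716 with each treated array left out in turn, against 787. The untreated contrast called 105 in the fit of only the groups compared, 1207 with array weights, 435 without the 2 treated arrays and 168 to 272 with single untreated arrays out, against 393. Genes called the same way in both were 71 in the fit of only the groups compared, 518 with array weights and 131 to 252 with single arrays out, against 255. The difference of CPA effects called 0 under every alternative. The other alternatives stayed within 1.5 times. Same-numbered arrays of A3 and D3 did not deviate together (r from -0.46 to 0.08), so the numbers were not taken as pairs; with the replicate block the counts were 750, 324, 0 and 219, and 3 efflux transporters were called higher. Of the 81 called genes that the naming rule gave, 49 kept the call under every alternative in which they were tested. The fit of only the groups compared lost 18 of the calls, and leaving out replicate 1 of A3 lost 20. Called genes named outside the rule are not in that count. The cause was not tested. Uncalled genes near 0 changed sign when arrays were left out: CYP4B1 ranged from -0.045 to 0.16, ERAP1 from -0.15 to 0.015, NLRC5 from -0.093 to 0.0056 and MYH7 from -0.044 to 0.13, with MYH7 at -0.016 without replicate 5 of D3. Scaling moved the median of all genes by less than 0.02. Each group has 3 or 4 arrays, which limits what small differences can be called.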

Other observations

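The trefoil factors, secreted peptides of mucous epithelia, stand side by side on chromosome 21 and were all higher in treated D3; they were picked after their values had been seen. TFF1 read 8.09, 8.34, 8.17 and 8.02 in treated A3 and 9.04, 9.03, 8.99 and 9.17 in treated D3, a difference of 0.90 ± 0.08 (limma, adjusted p = 3.2e-08). TFF2 averaged 6.93 against 7.59 (0.66 ± 0.09), and TFF3 was higher by 0.54 ± 0.13. In untreated tumours the differences were 0.79, 0.52 and 0.50, of which TFF3 missed the threshold (limma, adjusted p = 0.059). The bitter taste receptors TAS2R3, TAS2R4 and TAS2R5 on chromosome 7 formed another run, higher by 0.44, 0.62 and 0.48 under treatment and by 0.20, 0.42 and 0.16 without it, where none was called.

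Of 17 stem and progenitor markers, 4 were higher in treated D3 (23.5%, against 1.56% of all genes) and 1 was lower (5.88%, against 2.99%). SATB1, a chromatin organiser, read 5.81, 5.42, 5.76 and 5.92 in treated A3 and 6.41, 6.27, 6.52 and 6.48 in treated D3 (0.69 ± 0.13, limma adjusted p = 0.0015). LGR5, a receptor of the Wnt pathway, was higher by 0.63 ± 0.18, a call that 6 single arrays ended when left out, beside EPCAM and ITGA6, which also belong to the epithelial list. SOX2, a transcription factor of stem cells, was lower, at -0.44 ± 0.11 and lost its call without any of 3 single arrays (adjusted p up to 0.094 over all alternatives). Without replicate 1 of A3 the list held 1 higher call, and without replicate 3 of D3 it held 2.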
